A study of Zea mays with 24 samples.

Results

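The question here is what moderate drought did to the leaf transcriptome of maize line Y478 when the leaves also received exogenous abscisic acid (ABA). Y478 is the non-transgenic inbred line Ye478, and 6 of the 24 libraries of the series bear on the comparison. In 3 plants the pot mix was dried to moderate drought, which the paper defines as 40% to 50% moisture (moderate drought-exogenous ABA, here the drought plants). In 3 others it was watered when it fell below 70% (control-exogenous ABA, here the control plants). Both groups were sprayed with ABA at 15 mg/L, so every plant of this comparison had received ABA. The difference between them is the drought response on top of the spray. The second fully expanded leaf from the top was taken 9 days after the mix had first reached 50%, water having been withheld from the 5-leaf stage on. Other groups were used only for contrast. They were Y478 moderate drought and Y478 control without ABA, and the same pair of ABA treatments in Y7-1. Y7-1 is a single T4 transgenic line of Y478 that carries *ZmPMP3g* behind a triple CaMV35S promoter. The paper states that control seedlings were given tap water as a spray in the same volume. Below, the spray means the ABA spray, and unsprayed means without ABA, not without any spray. Each group had 3 individual plants. Of 46430 genes in the deposited table, 23978 reached 0.5 FPKM (fragments scaled for gene length and sequencing depth) in at least 3 of 24 libraries and were tested. Within the 6 libraries, 23314 of these were above 0 in any library and 20460 reached 0.5 FPKM in at least 3.

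ABA is made from carotenoids, and the cleavage by 9-cis-epoxycarotenoid dioxygenases (NCED) is the step that limits its rate. Bound ABA lets PYR/PYL receptors hold back protein phosphatases of type 2C (PP2C), which releases SnRK2 kinases to act on ABF and ABI5 type bZIP factors. Those factors bind promoters of genes for dehydrins, late embryogenesis abundant (LEA) proteins and enzymes of protective sugars, which help cells keep proteins and membranes intact when water is scarce. A leaf under drought has its own ABA besides any that is sprayed. The comparison therefore shows which genes of this pathway still differed with water supply when all leaves had been sprayed.

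All 6 libraries fitted their line label. Genes read in 1 line only (at least 1 FPKM, against under 0.1 in the other line, with 1 library per line allowed to deviate) were chosen on the other treatments. Of 56 such Y478 genes each control plant read 52, of 55 the drought plants read 52, 51 and 48, and none read any Y7-1 gene of 67 or 74. The library labelled Y7-1 moderate drought 3, which enters only the shared estimate of spread, read 68 of 74 Y478 genes and 0 of 125 Y7-1 genes. The number of DEGs below was 1672 without that library. The reads recovered from the FPKM values numbered 17626554 to 18332217 per library in the 6 libraries. The first principal component of the 6 libraries held 54.3% of the variance and separated the groups, with scores of -66.7, -65.6 and -35.7 in control plants 1 to 3 and 56.1, 31.3 and 80.6 in drought plants 1 to 3. Control plant 3 and drought plant 2 thus lay closest to the other group. Pearson correlations across genes were 0.943 to 0.972 within groups and 0.893 to 0.951 between them, so the ranges overlapped. The leaf label was borne out by the photosynthetic genes, with phosphoenolpyruvate carboxylase 1 (Zm00001d046170) at 539 to 3830 FPKM. Genes described as specific to root or pollen summed to 417 to 513 FPKM in drought plants and 344 to 445 in control plants over 96 genes, of which 30 and 32 were at 0 in every plant of the group.

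With limma on log2(FPKM + 0.5) and Benjamini-Hochberg adjustment, 1473 differentially expressed genes (DEGs, adjusted p under 0.05 and at least a doubling or halving) separated drought from control plants. That is 6.14% of the tested genes. Higher levels under drought were found for 1062 of them (4.43% of the tested genes) and lower levels for 411 (1.71%). Drought and control plants did not overlap in 7499 of all tested genes (31.3%), and in 1446 of the 1473, which the test itself all but requires. The rising genes had the larger changes, with 128 at a log2 fold change of 3 or more against 12 at -3 or less. The median change over all tested genes was 0.00 and the median standard error 0.31 on this scale, and fold changes on it understate the change of genes near 0. Protein-coding genes made up 1048 of the rising and 406 of the falling DEGs. The DEG share rose with level, from 2.05% of genes under a mean of 1 FPKM to 10.8% of genes at 100 FPKM or more.

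The plants of a group did not respond evenly. Drought plant 2 had the lowest of the drought values in 734 of the 1062 rising DEGs, and drought plant 3 had the lowest in 319 of the 411 falling DEGs. Control plant 3 had the highest control value in 603 of the rising DEGs. Leaving out drought plant 3 reduced the DEGs to 597 and leaving out control plant 1 to 695, while without control plant 3 there were 1612 and without drought plant 2 there were 1548. When only these 6 libraries entered the fit, 234 genes passed, among them 187 of the 1473, and 133 of the 178 DEGs chosen for naming (dehydrin1 and *viviparous14* included) no longer did. All 6 fits that each left out 1 plant kept 464 of the DEGs with their direction. A gene named in the following text stayed a DEG in each of those 6 fits unless a plant is named beside it, and fold changes are given on the log2(FPKM + 0.5) scale with their standard error (SE). A count in brackets after a gene list is that without the plant or plants that lowered it most, each left out alone. All such counts are to be read against the 6.14% of all tested genes.

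The genes of ABA synthesis that changed were those for the limiting step and for the last step, and all rose. NCED5 (Zm00001d018819, chromosome 7, 6342456 to 6344361) had 48.0, 19.9 and 26.3 FPKM in drought plants 1, 2 and 3. In control plants 1, 2 and 3 it had 0.0328, 0.366 and 1.77 FPKM. The groups were far apart, at 31.4 ± 14.7 against 0.722 ± 0.920 FPKM (mean ± SD, n = 3), and the log2 fold change was 4.88 ± 0.72 (SE, adjusted p 0.000976 by limma). The other classical NCED of maize, *viviparous14* (Zm00001d033222), which is named for seeds that sprout on the ear when it is lost, had 56.0, 25.7 and 34.2 FPKM in drought and 2.13, 2.30 and 11.9 FPKM in control plants. Its highest control value, in control plant 3, stayed below the lowest drought value (log2 fold change 3.05 ± 0.51, adjusted p 0.00181). The other risers changed less and depended on single plants. NCED9 (Zm00001d013689, log2 fold change 1.43) was no longer a DEG without control plant 1 or 2 or without drought plant 1 or 2. Aldehyde oxidase5 (Zm00001d018869, 1.78), a member of the family that turns abscisic aldehyde into ABA, was lost without any plant other than drought plant 2. In all, 4 of 27 tested genes of ABA synthesis rose, none fell, and 23 did not pass, a share of 14.8% against 6.14% of all tested genes (median log2 fold change of the list -0.11). It was 2 of 27, near the share of all genes, without control plant 1, control plant 2 or drought plant 1. None of 5 ABA 8'-hydroxylases, which break ABA down, passed. The one with the smallest p, ABA 8'-hydroxylase4 (Zm00001d020717), had 307, 169.7 and 70.5 FPKM in drought and 344, 286 and 312 FPKM in control plants (log2 fold change -1.02 ± 0.54, adjusted p 0.256).

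**Figure D1:**
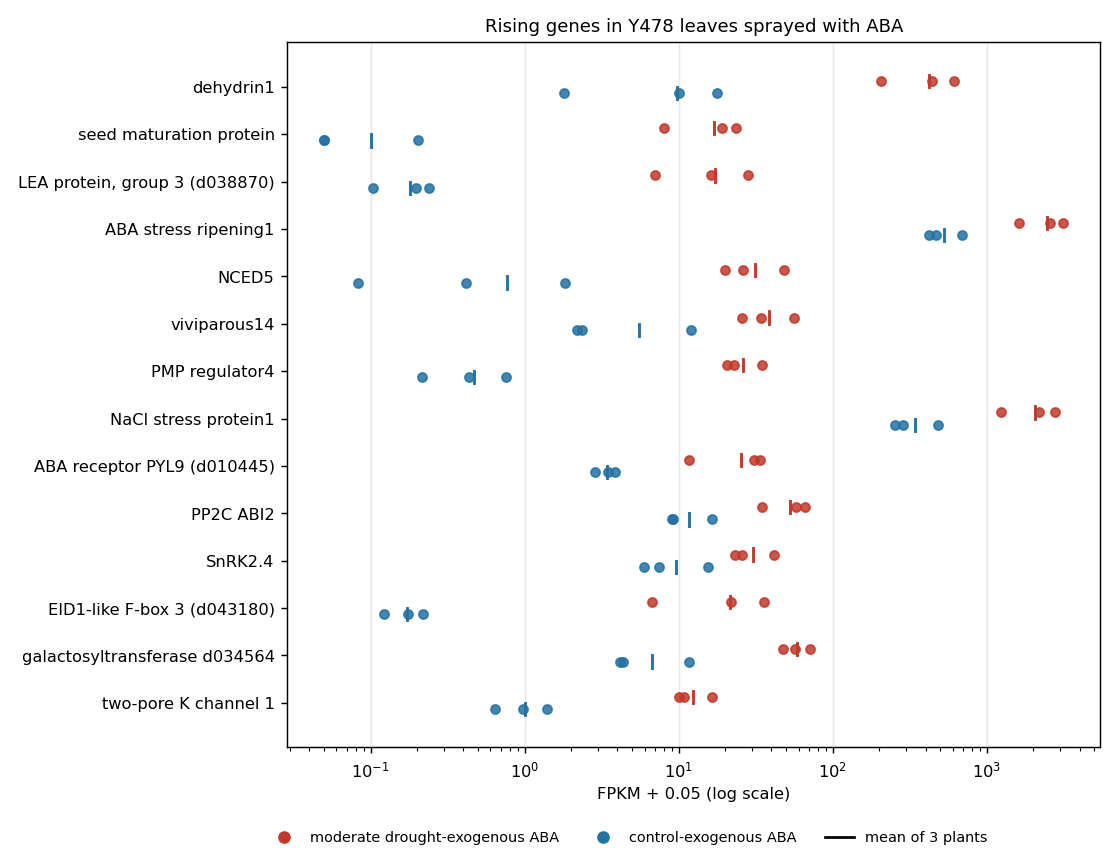
FPKM + 0.05 on a log axis of 14 rising genes in 3 drought plants (red) and 3 control plants (blue), all of Y478 and sprayed with ABA, with vertical bars at the mean of 3 plants. In each gene all drought plants lie to the right of all control plants, and dehydrin1 spans 206 to 610 FPKM against 1.74 to 17.6 FPKM.

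Along the signalling chain, the main fit called DEGs at each level but in few members. With only the 6 libraries of this comparison in the fit, 0 receptor, 0 PP2C and 0 SnRK2 genes passed. Of the ABI5 and ABF type factors 1 passed in that fit. Among ABA receptors 3 of 9 tested genes rose and none fell (33.3%), and 1 of 9 was a DEG without drought plant 3. A PYL9 gene (Zm00001d010445) had 33.5, 11.6 and 30.8 FPKM under drought against 2.81, 3.43 and 3.81 FPKM in control plants (2.61 ± 0.54, adjusted p 0.00573). The second PYL9 gene (Zm00001d016105) was the more abundant of the pair in every plant and did not pass, at 85.4, 57.1 and 125 FPKM under drought and 144, 126 and 118 FPKM in control plants (-0.60 ± 0.37, adjusted p 0.339). The genes of the same name thus differed in level and in the sign of their estimate. PYL5 (Zm00001d038436) was listed at 0 in all control plants and at 0.593, 0.482 and 1.47 FPKM under drought. Set against a floor of 3 reads per library, this is at least 2.70-fold higher, and it was not a DEG without control plant 1 or drought plant 3. PYR1 (Zm00001d030045) rose by 1.24 ± 0.30 and was not a DEG without control plant 2 or drought plant 3.

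Of 87 tested PP2C genes, 7 rose and 1 fell, a share of 9.20% that is close to the 6.14% of all genes (5 DEGs without drought plant 3). The rising members included the gene described as PP2C ABI2 (Zm00001d044301), the type of phosphatase that the receptors hold back, with 66.1, 34.7 and 57.5 FPKM under drought and 9.02, 9.17 and 16.5 FPKM in control plants. Its log2 fold change was 2.15 ± 0.33 (adjusted p 0.00113). Neighbouring genes on chromosome 8 described as PP2C 16 rose together, Zm00001d011132 by 2.78 ± 0.44 and Zm00001d011131 by 2.63 ± 0.46, and reads that match both copies may be shared between them. PP2C 37 (Zm00001d028574) had 115, 62.4 and 72.5 FPKM against 7.32, 16.98 and 41.1 FPKM and was a DEG only in the fits without control plant 3 or drought plant 2 among the 6. Of 9 SnRK2 kinases 1 rose, SnRK2.4 (Zm00001d042695), with 41.7, 23.2 and 25.9 FPKM under drought and 7.44, 15.4 and 5.89 FPKM in control plants (1.68 ± 0.33, adjusted p 0.00398). Control plant 2 was the nearest to the drought values, and the count of SnRK2 DEGs was 3 without it.

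Among 9 tested ABI5 and ABF type factors 2 rose and 1 fell, and none of these calls held without control plant 1 or without drought plant 3. An ABI5-like protein 5 gene (Zm00001d050018) rose by 1.37 ± 0.31 (adjusted p 0.00916), and a second gene of that name (Zm00001d031790) by 1.15 ± 0.30 (adjusted p 0.0186). The most abundant of the ABI5-like genes examined, Zm00001d018178, had 222, 112 and 135 FPKM in drought and 43.7, 56.5 and 57.8 FPKM in control plants. Its groups did not overlap, but the test did not pass (1.51 ± 0.52, adjusted p 0.0741). The paper, by its own test, lists Zm00001d050018, Zm00001d031790 and Zm00001d018178 all as rising DEGs in this same contrast. The gene described as ABI5 itself (Zm00001d042779) was the one that fell, at 1.14, 0.656 and 0.833 FPKM under drought against 3.62, 1.66 and 3.56 FPKM in control plants (adjusted p 0.0457), a call kept only without control plant 2.

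Proteins that protect dehydrating cells gave the largest number of rising genes of the 44 lists. Of 132 genes matched as dehydrins, LEA proteins and ABA stress ripening (ASR) proteins, 61 were tested, and 20 of them rose while none fell. That share, 32.8%, compares with 4.43% of all tested genes that rose, and the median log2 fold change of the list was 0.85. The number ranged from 14 without drought plant 3 to 22 without drought plant 2. Dehydrin1 (Zm00001d037894, chromosome 6, 141324495 to 141325549) had 610.4, 206 and 438 FPKM in drought plants 1, 2 and 3. The same gene had 1.74, 9.93 and 17.6 FPKM in control plants 1, 2 and 3. With means of 418 ± 203 against 9.74 ± 7.91 FPKM (± SD, n = 3), it had the largest fold change of all named genes of the list, 5.67 ± 0.76 (adjusted p 0.000671).

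Other seed-type proteins were almost silent in sprayed control leaves. A seed maturation protein gene (Zm00001d024414) had 23.5, 7.99 and 19.1 FPKM under drought, and a single read in the 3 control plants together against 410 reads in the drought plants (ratio of reads 410, 95% counting interval 73.2 to 16233). A group 3 LEA gene (Zm00001d043709) had 24.03, 10.8 and 6.86 FPKM under drought and 0.172, 0 and 0.134 FPKM in control plants. It had the smallest p of all rising genes (log2 fold change 4.41 ± 0.36, adjusted p 6.05e-06). Drought plant 3 was the lowest of its group here, whereas drought plant 2 was the lowest for dehydrin1 and the seed maturation protein. A second group 3 LEA gene (Zm00001d038870) had 16.3, 6.99 and 28.0 FPKM against 0.188, 0.0537 and 0.147 FPKM (4.61 ± 0.61). ASR genes differed from these by being abundant in every plant. ASR1 (Zm00001d023529) had 3146, 1609 and 2568 FPKM under drought and 421, 690.5 and 466 FPKM in control plants (2.19 ± 0.36, adjusted p 0.00159). ASR3 (Zm00001d003712) had 989.6, 798 and 346 FPKM and 177, 207 and 374 FPKM, so that its drought plant 3 lay below control plant 3, and it was a DEG (adjusted p 0.0362) only in the fits without control plant 3 or drought plant 3 among the 6.

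The PMP3/RCI2 proteins, very small hydrophobic proteins of the plasma membrane linked to ion balance under salt stress, are the family of the transgene that Y7-1 carries. In Y478, 4 of 7 tested members rose and none fell (2 without control plant 1 or without drought plant 3), with a median log2 fold change of 1.04. Proteolipid membrane potential regulator4 (Zm00001d028718) had 22.7, 20.4 and 34.9 FPKM under drought and 0.165, 0.708 and 0.387 FPKM in control plants (4.85 ± 0.74, adjusted p 0.00112). The NaCl stress protein1 gene (Zm00001d024778, chromosome 10, 87401369 to 87401545), the homolog of *ZmPMP3g*, was expressed far more strongly, at 2179, 1239.8 and 2771 FPKM in drought and 253, 485 and 285 FPKM in control plants. Its log2 fold change was 2.58 ± 0.58 (adjusted p 0.00951), and it was not a DEG without control plant 1 or drought plant 3. In Y7-1 the same gene had 1132, 1634 and 1104 FPKM under sprayed drought and 381, 214 and 80.1 FPKM in sprayed controls (means 1290.1 ± 298 and 225 ± 151 FPKM, against 2064 ± 772 and 341 ± 126 FPKM in Y478, SD, n = 3). The level between the lines was not tested, and whether reads of the transgene were counted to this gene is not known. By qPCR the paper reports significantly higher *ZmPMP3g* expression in its transgenic plants than in their wild types, in an experiment described without ABA. Regulator5 (Zm00001d022264) rose by 3.01 ± 0.64. Another member, proteolipid membrane potential regulator2 (Zm00001d006329), rose by 1.04 ± 0.24 and kept its call only without control plant 3 or drought plant 2.

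Enzymes of raffinose and trehalose, sugars that stabilise membranes and proteins, rose in 10 of 31 tested genes, and none fell (median log2 fold change 0.89, and 5 DEGs without drought plant 3). A galactinol-sucrose galactosyltransferase (Zm00001d034564), the enzyme type that makes raffinose, had 70.8, 47.7 and 56.6 FPKM under drought and 4.28, 4.12 and 11.6 FPKM in control plants. This gene had little spread among drought plants (3.17 ± 0.56, adjusted p 0.00256). A trehalose-phosphate phosphatase gene (Zm00001d029371) rose by 3.03 ± 0.65. Trehalose-6-phosphate synthase10 (Zm00001d052060) had 35.5, 5.77 and 33.9 FPKM against 2.15, 1.25 and 1.85 FPKM, and drought plant 2 responded much less than the other drought plants (3.16 ± 0.72, not a DEG without drought plant 3). Of 105 tested genes of sucrose, starch and sugar transport 5 rose and 4 fell, 8.57% against the 6.14% of all genes (5 DEGs without control plant 1 or drought plant 3). The rising ones included SWEET transporters, which move sugars across membranes, SWEET16 (Zm00001d029098, 3.66 ± 0.64) and SWEET6a (Zm00001d044421, 3.36 ± 0.51). Sucrose-phosphate synthase (Zm00001d012036), which controls the making of sucrose, was the largest fall of that list, from 191, 144 and 146 FPKM in control plants to 46.0, 32.1 and 16.8 FPKM in drought plants. The groups were well apart (-2.43 ± 0.34, adjusted p 0.000722). Proline and betaine synthesis gave 1 rising gene of 9, a pyrroline-5-carboxylate synthase (Zm00001d038358) at 0.799 to 1.09 FPKM under drought, a call kept only without control plant 3.

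**Figure D2:**
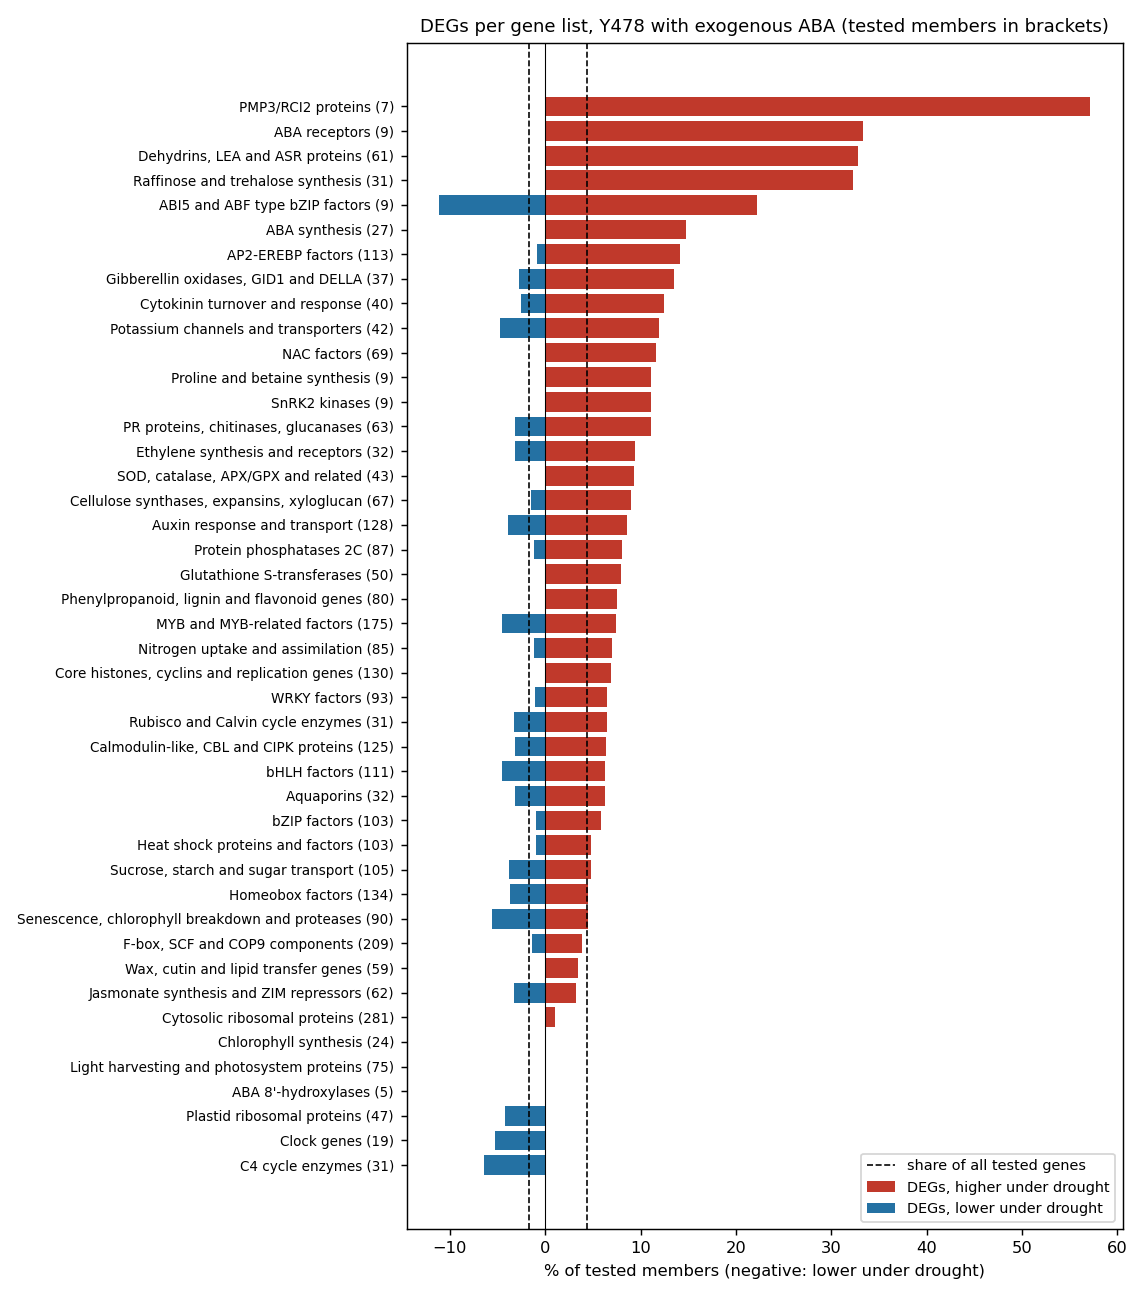
DEGs as a percentage of the tested members of 44 gene lists (number tested in brackets) in Y478 with exogenous ABA, with bars to the right for genes higher and to the left for genes lower under drought. Dashed lines mark the shares of all tested genes, 4.43% up and 1.71% down. PMP3/RCI2 proteins, ABA receptors, dehydrins with LEA and ASR proteins, and raffinose and trehalose synthesis have the longest bars to the right.

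Among transcription factors the AP2-EREBP family, which holds the dehydration-responsive element binding proteins and the ethylene response factors, had the largest number of rising members. Of 113 tested genes 16 rose and 1 fell, and the median log2 fold change was 0.49 (10 DEGs without drought plant 3 and 21 without control plant 3). A gene described as ERF105 (Zm00001d051340) had 2 reads in the control plants together and 273 in the drought plants (ratio 136.5, 95% counting interval 37.4 to 1133), where its level was 6.84, 2.43 and 6.42 FPKM. Ethylene-responsive factor 4 (Zm00001d002364) had 27.5, 25.5 and 21.2 FPKM under drought against 1.49, 1.84 and 6.57 FPKM (2.97 ± 0.55, adjusted p 0.00305). The single falling member, an AP2-like factor (Zm00001d032144), had 0.117, 0.267 and 0 FPKM under drought and 9.35, 2.08 and 21.6 FPKM in control plants and was not a DEG without drought plant 3. Of 69 tested NAC factors 8 rose and none fell (2 without drought plant 3), led by Zm00001d008399 with 7.05, 3.30 and 8.99 FPKM against 0.112, 0 and 0 FPKM (3 reads against 548, ratio 183 with a 95% counting interval of 62.2 to 888, not a DEG without drought plant 3). A NAC domain-containing protein 21/22 gene (Zm00001d041472) had little spread, at 16.0, 9.99 and 12.9 FPKM and 2.28, 2.16 and 1.91 FPKM (2.34 ± 0.42, adjusted p 0.00278). WRKY factors rose in 6 of 93 tested genes and fell in 1, near the background (1 DEG without drought plant 3). WRKY-transcription factor 32 (Zm00001d028962) was the one that stayed, with 15.9, 12.1 and 38.3 FPKM under drought and 0.585, 1.34 and 1.07 FPKM in control plants (3.77 ± 0.58).

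In the bZIP, MYB, bHLH and homeobox families the shares of DEGs were 6.80%, 12%, 10.8% and 8.21% of the tested genes, with members in each direction. Without drought plant 3 these families had 4, 10, 2 and 4 DEGs, against 7, 21, 12 and 11, and without control plant 3 the homeobox family had 19. G-box-binding factor 4 (Zm00001d042721), of the bZIP class, had 34.7, 16.4 and 38.4 FPKM under drought and 4.94, 4.93 and 5.40 FPKM in control plants (2.35 ± 0.36, adjusted p 0.00117). A MYB-like factor (Zm00001d039492) had 159, 56.2 and 138 FPKM and 10.9, 11.3 and 19.3 FPKM (2.96 ± 0.48). Homeobox genes moved both ways. ATHB-6 type Zm00001d017422 rose to 350.0, 139 and 180.0 FPKM from 9.40, 14.4 and 50.7 FPKM and was not a DEG without control plant 1. Homeobox-transcription factor 81 (Zm00001d036510) was all but absent under drought, with 1 read in the 3 drought plants and 308 in the control plants (ratio of control to drought reads 308, 95% counting interval 54.9 to 12204). Heat shock proteins and factors changed in 6 of 103 tested genes, 5.83% and so no more than the background (1 DEG without control plant 1). Of these, 4 rising ones and the falling one are heat stress transcription factors, which switch on chaperone genes, and 1 is a small chaperone. F-box proteins, the parts of ubiquitin ligases that pick out proteins for breakdown, also stayed near the background at 8 rising and 3 falling of 209 (7 DEGs without drought plant 3 and 16 without drought plant 2). A trio of genes described as EID1-like F-box protein 3 were nevertheless among the largest rises. The first (Zm00001d043180) had 35.8, 6.68 and 21.9 FPKM under drought and 0.0726, 0.125 and 0.170 FPKM in control plants (4.86 ± 0.58, adjusted p 0.000335). The others rose by 4.56 ± 0.78 (Zm00001d038563) and 3.77 ± 0.46 (Zm00001d010652).

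Hormone genes other than those of ABA changed in small numbers. In the gibberellin list 5 of 37 tested genes rose and 1 fell, 16.2% (4 DEGs without control plant 1 or drought plant 3). A gibberellin 2-beta-dioxygenase (Zm00001d037724), of the type that inactivates gibberellins, had 11.3, 1.59 and 10.8 FPKM under drought and 0, 0 and 0.555 FPKM in control plants (3.35 ± 0.69, adjusted p 0.00589). Gibberellin 20-oxidase5 (Zm00001d012212), of the type that makes them, fell from 39.0, 25.9 and 24.8 FPKM in control plants to 5.54, 7.38 and 1.67 FPKM in drought plants (-2.67 ± 0.55, adjusted p 0.00563). This gene of inactivation and this gene of synthesis thus moved in opposite directions, while 31 of the 37 genes of the list did not pass. Among 40 tested cytokinin genes 5 rose and 1 fell. Cytokinin oxidases, which degrade cytokinins, moved both ways, with cytokinin oxidase10 (Zm00001d032046) at 6.96, 6.25 and 2.76 FPKM under drought and 43.3, 42.2 and 22.5 FPKM in control plants (-2.68 ± 0.49). Cytokinin oxidase 4 (Zm00001d043293) rose by 1.82 ± 0.34.

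Ethylene synthesis and signalling had 3 rising genes and 1 falling gene of 32 tested (2 DEGs without drought plant 3), and all 3 rising ones encode 1-aminocyclopropane-1-carboxylate (ACC) oxidase, the last enzyme of ethylene synthesis. ACC oxidase2 (Zm00001d020686) had 169, 83.8 and 238 FPKM under drought and 19.1, 37.1 and 13.9 FPKM in control plants (2.78 ± 0.46, adjusted p 0.0017). A second ACC oxidase gene (Zm00001d039575) rose by 2.69 ± 0.58. ACC oxidase35 (Zm00001d018211) kept its call only without control plant 3. In the auxin list 11 of 128 tested genes rose and 5 fell, 12.5% (6 DEGs without control plant 2). Several rising ones were SAUR genes, short early auxin response genes. SAUR12 (Zm00001d018200) had 14.4, 28.2 and 28.9 FPKM under drought and 2.41, 0.540 and 10.7 FPKM in control plants (2.85 ± 0.62), and Zm00001d021062 had 4.21, 2.69 and 6.03 FPKM and 0.456, 0 and 0.534 FPKM (2.54 ± 0.51). Jasmonate genes changed in 4 of 62, close to the background, with 0 DEGs without drought plant 3 and 2 without control plant 3.

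Membrane transport and detoxification added single genes with large changes. Of 42 tested potassium channels and transporters 5 rose and 2 fell, 16.7% against 6.14% of all genes, and without drought plant 3 the number was 3 of 42, near that of all genes. Two-pore potassium channel 1 (Zm00001d049218), a vacuolar channel, had 16.3, 10.8 and 10.0 FPKM under drought and 0.923, 0.594 and 1.35 FPKM in control plants. Its spread was small in both groups (3.15 ± 0.39, adjusted p 0.0004). Aquaporins, the water channels, rose in 2 of 32 tested genes and fell in 1, and none of the 3 held without control plant 1. Tonoplast aquaporin TIP1-1 (Zm00001d027652) was among the most abundant transcripts, at 3678, 2595 and 3027 FPKM under drought and 573, 754 and 1169 FPKM in control plants, and was also not a DEG without drought plant 1 or 3. Plasma membrane aquaporin PIP2-2 (Zm00001d005410) went the other way, with 1 read in the 3 drought plants and 288 in the control plants. The ratio of control to drought reads was 288 (95% counting interval 51.3 to 11414, which leaves out the spread between plants). PIP2-2 was also not a DEG without drought plant 3. A calcium-binding EF-hand gene (Zm00001d014325) was 1 of the 5 rising genes with the smallest p, at 148, 142 and 292 FPKM under drought and 27.2, 31.4 and 23.8 FPKM in control plants (2.72 ± 0.32, adjusted p 0.000334). Glutathione S-transferases rose in 4 of 50 tested genes, 8% and close to the 6.14% of all genes (2 without control plant 1 or drought plant 3). Of these, GSTU6 (Zm00001d043795) had 146, 56.9 and 90.1 FPKM and 5.85, 8.54 and 11.8 FPKM (3.36 ± 0.63). Of 43 genes of superoxide and peroxide removal 4 rose and none fell, 9.30% against 6.14% of all genes (2 without drought plant 3). The list did not move as a whole, with a median log2 fold change of -0.009 and 19 of 43 estimates above 0. Among the rising genes was catalase1 (Zm00001d014848), which splits hydrogen peroxide, at 94.6, 78.8 and 123 FPKM against 39.0, 41.9 and 45.3 FPKM (1.20 ± 0.19, adjusted p 0.00118). In the phenylpropanoid list 6 of 80 rose and none fell, 7.5% and close to the 6.14% of all genes (1 without control plant 1). An anthocyanidin glucosyltransferase (Zm00001d042739) had 68.1, 19.9 and 67.7 FPKM under drought and 1.397, 3.07 and 1.48 FPKM in control plants (4.27 ± 0.67).

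Photosynthesis genes changed little by this test. None of 75 tested light harvesting and photosystem genes passed, with a median log2 fold change of -0.05, and none of 24 genes of chlorophyll synthesis passed. The photosystem gene with the smallest p, an oxygen-evolving enhancer protein gene (Zm00001d006540), had 965, 1013 and 523 FPKM under drought and 2416, 1311 and 3611 FPKM in control plants, with no overlap (-1.49 ± 0.50, adjusted p 0.065). In the C4 cycle, by which maize mesophyll cells concentrate carbon dioxide for the bundle sheath, 2 of 31 tested genes fell, and neither held without control plant 1 or drought plant 3. Carbonic anhydrase1 (Zm00001d044099), which supplies bicarbonate, had 1768, 1482 and 629.6 FPKM under drought and 3287, 3285 and 3900.1 FPKM in control plants (-1.56 ± 0.41, adjusted p 0.0217, also not a DEG without control plant 3). Phosphoenolpyruvate carboxylase 1 (Zm00001d046170), which fixes it, had 1741, 1512 and 539 FPKM and 2826, 2858 and 3830.2 FPKM, with drought plant 3 far below the others (adjusted p 0.0477, kept only without drought plant 1). Over the 34 mesophyll marker genes the summed level was 3968 to 8364 FPKM in drought plants and 10865 to 14925 FPKM in control plants, without overlap, and 5 of them were at 0 in every plant of each group. These markers are themselves C4 enzyme genes, so their sum largely restates the C4 result and is no separate measure of mesophyll cells. Summed bundle sheath markers overlapped, at 9600.0 to 12165 against 9522 to 18314 FPKM over 12 genes. The sums of guard cell, phloem, epidermis, xylem and organelle markers overlapped between the groups as well. In whole leaves fewer cells of a type and less RNA per cell cannot be told apart.

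Genes of growth gave a mixed picture. Of 281 tested cytosolic ribosomal protein genes 3 rose and none fell, 1.07% and below the background, although the median log2 fold change was 0.28 (0 without control plant 1 and 7 without control plant 3). Of 47 tested plastid ribosomal protein genes 2 fell (median -0.24), and neither held without control plant 3 or drought plant 3. In the list of core histones, cyclins and replication genes 9 of 130 rose and none fell, and the number moved with single plants, to 23 without control plant 3 and to 4 without control plant 1 or drought plant 3. A histone H3.2 gene (Zm00001d012276) had 7.99, 17.7 and 16.7 FPKM under drought and 0.419, 1.44 and 4.54 FPKM in control plants, the highest control value being that of plant 3 (2.74 ± 0.47). The histone genes are near-identical copies, among which reads could be shared. The 76 markers of dividing cells summed to 1874 to 1974 FPKM in drought plants and 770.1 to 1684 FPKM in control plants, of which control plant 3 was again the highest, and 30 of them were at 0 in every plant of each group. Histone genes of the list, Zm00001d012276 among them, are also members of these markers, so the sum is not separate from the histone result.

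Falling genes were fewer, and several were nearly silent in every drought plant. Cellulose synthase-like D3 (Zm00001d021732, chromosome 7, 161616775 to 161621032), of a family that makes wall glycans in growing cells, had 0.111, 0 and 0.197 FPKM in drought and 14.9, 5.98 and 19.0 FPKM in control plants. It had the smallest p and the largest change of the falling genes (-4.39 ± 0.40, adjusted p 1.85e-05). Zinc transporter 7 (Zm00001d033446) was listed at 0 in all drought plants and at 5.46, 2.67 and 10.7 FPKM in control plants, at least 52.9-fold lower when drought is set at a floor of 3 reads per library. A thaumatin-like protein 1 gene (Zm00001d028399), of a pathogenesis-related class, had 2.10, 1.19 and 2.08 FPKM and 27.1, 8.90 and 38.7 FPKM (-3.27 ± 0.64). Its neighbour on chromosome 1, Zm00001d028400, also of the thaumatin class, had 17.5, 1.16 and 5.79 FPKM under drought and 0.156, 0.0670 and 0.0457 FPKM in control plants, the opposite direction, although that call was kept only without drought plant 2. Other falls were found for a leucine-rich repeat kinase (Zm00001d024291, -3.27 ± 0.62), the TIC 32 short-chain dehydrogenase (Zm00001d047150, -3.11 ± 0.52), a DNA binding protein gene (Zm00001d029078, -2.94 ± 0.57) and a serine carboxypeptidase-like 51 gene (Zm00001d029410, -2.88 ± 0.54).

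The list of senescence genes and proteases did not move as a whole, with 4 rising and 5 falling of 90 tested (3 DEGs without control plant 1 or drought plant 3). The SAG12-type cysteine protease (Zm00001d049113), whose Arabidopsis namesake marks ageing leaves, fell from 19.3, 20.50 and 13.9 FPKM in control plants to 1.96, 3.69 and 1.26 FPKM in drought plants (-2.79 ± 0.53, adjusted p 0.00362). A cysteine proteinase gene (Zm00001d049054) rose by 2.71 ± 0.42, and a gene described as senescence regulator (Zm00001d014007) had 174, 62.2 and 130.2 FPKM and 16.0, 8.64 and 67.5 FPKM, a call lost without control plant 1, control plant 2 or drought plant 3. Some falling genes had small spreads and modest changes. A guanylate kinase gene (Zm00001d028954) had 18.2, 19.3 and 17.9 FPKM under drought and 56.5, 48.5 and 44.3 FPKM in control plants (-1.40 ± 0.19), and a magnesium/proton exchanger gene (Zm00001d048692) had 2.50, 2.64 and 1.70 FPKM and 9.06, 9.22 and 8.06 FPKM (-1.75 ± 0.24). A far-red impaired response type gene (Zm00001d028472) fell by 2.29 ± 0.32 on the log2 scale.

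**Figure D3:**
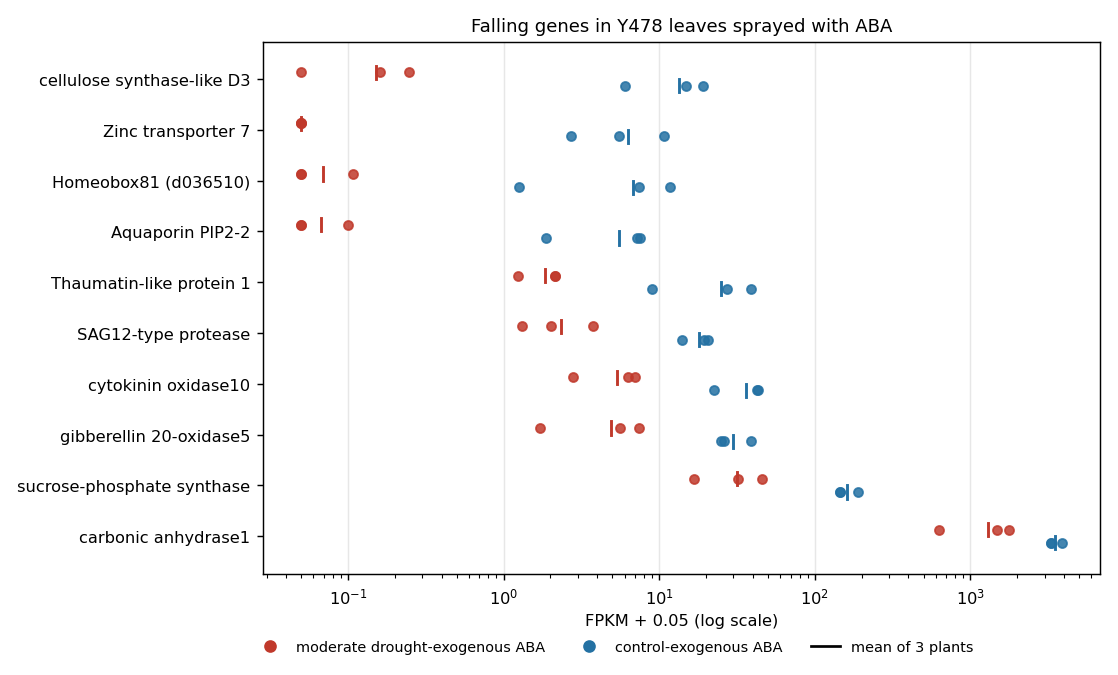
FPKM + 0.05 on a log axis of 10 falling genes in 3 drought plants (red) and 3 control plants (blue) of Y478, all sprayed with ABA, with vertical bars at the mean of 3 plants. In each gene all drought plants lie to the left of all control plants, and Zinc transporter 7 is at 0 FPKM in all drought plants.

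The same contrast in Y478 leaves that received no ABA shares no library with this one. There, 985 DEGs were found (4.11% of the tested genes), 575 up (2.4%) and 410 down (1.71%). Single plants moved that number as well, to 414, 322 and 609 without unsprayed control plant 1, 2 or 3 and to 282 and 474 without unsprayed drought plant 1 or 2. Of the 1062 genes that rose with the spray, 411 also rose without it, which is 38.7% of the former and 71.5% of the 575. Of the 411 that fell with the spray, 151 also fell without it, 36.7% of the former and 36.8% of the 410, and no DEG had opposite calls. The 562 shared DEGs became 326 without sprayed control plant 1 and 284 without sprayed drought plant 3, and 297, 231 and 334 without unsprayed control plant 1, 2 or 3, and 186 and 309 without unsprayed drought plant 1 or 2. Among the 1062, 1012 had a positive estimate without the spray, with a median log2 fold change of 1.17 there and 1.71 with the spray. Among the 575 chosen without the spray, 570 had a positive estimate with it, with medians of 1.78 without and 1.64 with the spray. Each set had its larger median in the comparison it was chosen on, so these medians do not rank the responses. Tested directly, the difference between the responses with and without the spray gave 0 DEGs (0.0% of tested genes) by limma, and 0 by limma-voom on the recovered reads, but 1358 when the libraries were weighted (limma array weights), and 634 passed the fold and p thresholds before adjustment. The standard error of that difference had a median of 0.44, so differences of the size of 1 on the log2 scale were not detectable for most genes.

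**Figure D4:**
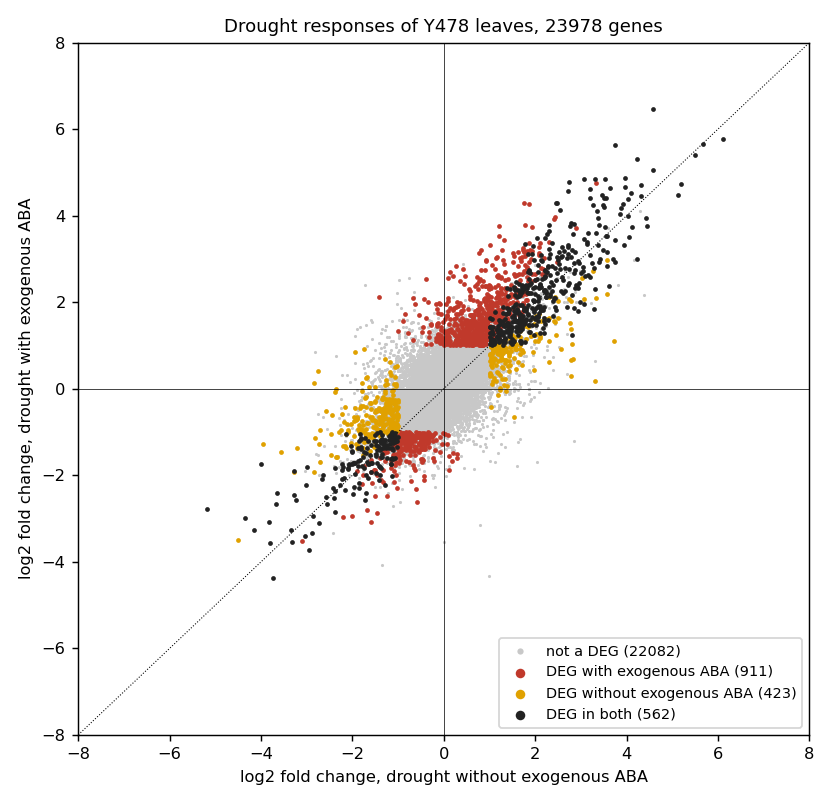
Log2 fold change of drought against control in Y478 without (horizontal) and with exogenous ABA (vertical), 1 point per tested gene, 23978 in all. The colours mark 562 DEGs of both comparisons, 911 with the spray only by call and 423 without it only by call, and the dotted line marks equal changes.

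For the ABA genes examined no difference between the comparisons passed, and the errors on the differences were wide. Dehydrin1 rose by 5.67 without and by 5.67 with the spray, a difference of -0.006 ± 1.07 (SE). For NCED5 the changes were 3.97 and 4.88 (difference 0.91 ± 1.01), for *viviparous14* 2.79 and 3.05 (0.25 ± 0.72), and for the SnRK2.4 gene 2.398 and 1.68 (-0.72 ± 0.46). Those errors leave room for differences of more than a doubling. A few genes passed the test with the spray and had much smaller estimates without it. Two-pore potassium channel 1 had 6.12, 1.78 and 2.82 FPKM in unsprayed drought plants and 2.82, 1.17 and 1.31 FPKM in unsprayed controls, a change of 0.77 against 3.15 with the spray (unadjusted p of the difference 0.000408, adjusted 0.668). ACC oxidase2 had 72.6, 55.0 and 36.8 FPKM and 33.0, 50.2 and 36.4 FPKM without the spray, a change of 0.42 against 2.78 (unadjusted p 0.00177, adjusted 0.668). The SAUR gene Zm00001d021062 had 1.01, 0 and 0.947 FPKM and 1.10, 0.586 and 0.901 FPKM without the spray, a change of -0.39 against 2.54 (unadjusted p 0.000709, adjusted 0.668). The SAG12-type protease had 42.1, 90.1 and 66.5 FPKM in unsprayed and 19.3, 20.50 and 13.9 FPKM in sprayed control plants, while unsprayed drought plants had 1.15, 1.44 and 1.19 FPKM. The control levels of this gene were not tested against each other. Its changes were -5.18 without and -2.79 with the spray (adjusted p of the difference 0.711). None of these differences passed the adjustment.

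Y7-1 leaves under the same sprayed treatments had 1695 DEGs (7.07% of the tested genes), 1071 up (4.47%) and 624 down (2.6%). Without Y7-1 drought plant 1 there were 1039 and without plant 2 there were 901. Of the rising DEGs, 366 were shared with Y478, 34.5% of the Y478 list and 34.2% of the Y7-1 list, and of the falling DEGs 110, 26.8% and 17.6%, while 2 DEGs had opposite calls. In all, 166 rising and 60 falling genes were DEGs in all 3 drought comparisons. The difference between the lines gave 7 DEGs (0.0292% of tested genes), with 1628 genes before adjustment of p, 0 DEGs by limma-voom and 866 with array weights. Leaving out Y478 control plant 3 or Y7-1 drought plant 2 gave 0, and leaving out Y478 drought plant 2 gave 38 and Y7-1 control plant 1 gave 40. Cellulose synthase-like D3 was 1 of the 7, and it was already at 1.48, 0 and 0.0545 FPKM in sprayed Y7-1 controls and at 0, 0 and 0 FPKM under drought (difference of the log2 changes, Y7-1 minus Y478, 3.68 ± 0.57, adjusted p 0.0231). Metal tolerance protein 10 (Zm00001d040002) rose in Y478, with 79.1, 56.1 and 120.4 FPKM under drought and 25.8, 16.9 and 29.1 FPKM in control plants, and had 21.1, 26.2 and 19.4 FPKM against 37.2, 36.2 and 35.8 FPKM in Y7-1 (difference -2.49 ± 0.42, adjusted p 0.0403). A proteasome subunit alpha gene (Zm00001d043137) fell in Y478 from 7.48, 6.79 and 7.33 FPKM to 2.10, 3.10 and 2.45 FPKM and did not pass in Y7-1 (difference 1.81 ± 0.29, adjusted p 0.0274).

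Several of the largest rises in Y478 were not DEGs in Y7-1, but the test of the difference did not pass for them. A stem-specific protein TSJT1 gene (Zm00001d026632) had 225, 12.2 and 442 FPKM in Y478 drought plants and 1.57, 0.605 and 2.94 FPKM in Y478 controls. In Y7-1 it had 6.11, 3.14 and 6.04 FPKM under drought and 6.65, 7.17 and 269.7 FPKM in controls, so that 1 Y7-1 control plant alone was high. The difference of the changes was -7.95 ± 2.20 (adjusted p 0.22), and in Y478 the gene was a DEG only in the fits without control plant 3 or drought plant 2 among the 6. Chaperone dnaJ 11 (Zm00001d014790) had 142, 27.4 and 121 FPKM and 0.318, 1.64 and 6.89 FPKM in Y478 (not a DEG without control plant 1 or drought plant 3), against 67.9, 43.7 and 52.3 FPKM and 77.5, 60.9 and 482 FPKM in Y7-1. The PYL9 gene Zm00001d010445 had 24.4, 22.3 and 21.9 FPKM and 5.95, 9.87 and 61.4 FPKM in Y7-1, and the galactosyltransferase gene Zm00001d034564 21.0, 26.3 and 10.1 FPKM and 7.49, 6.89 and 35.9 FPKM. In all 4 genes Y7-1 control plant 3 stood far above the other Y7-1 controls. For the PYL9 and galactosyltransferase genes Y7-1 control plants 1 and 2 lay below every Y7-1 drought plant, while for TSJT1 and dnaJ 11 they did not. Without Y7-1 control plant 3, Y7-1 had 1709 DEGs and 14 genes differed between the lines. What that fit gave for these 4 genes is not given here. Dehydrin1, by contrast, rose in Y7-1 from 2.78, 2.62 and 0.236 FPKM to 1034, 415 and 537 FPKM.

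**Figure D5:**
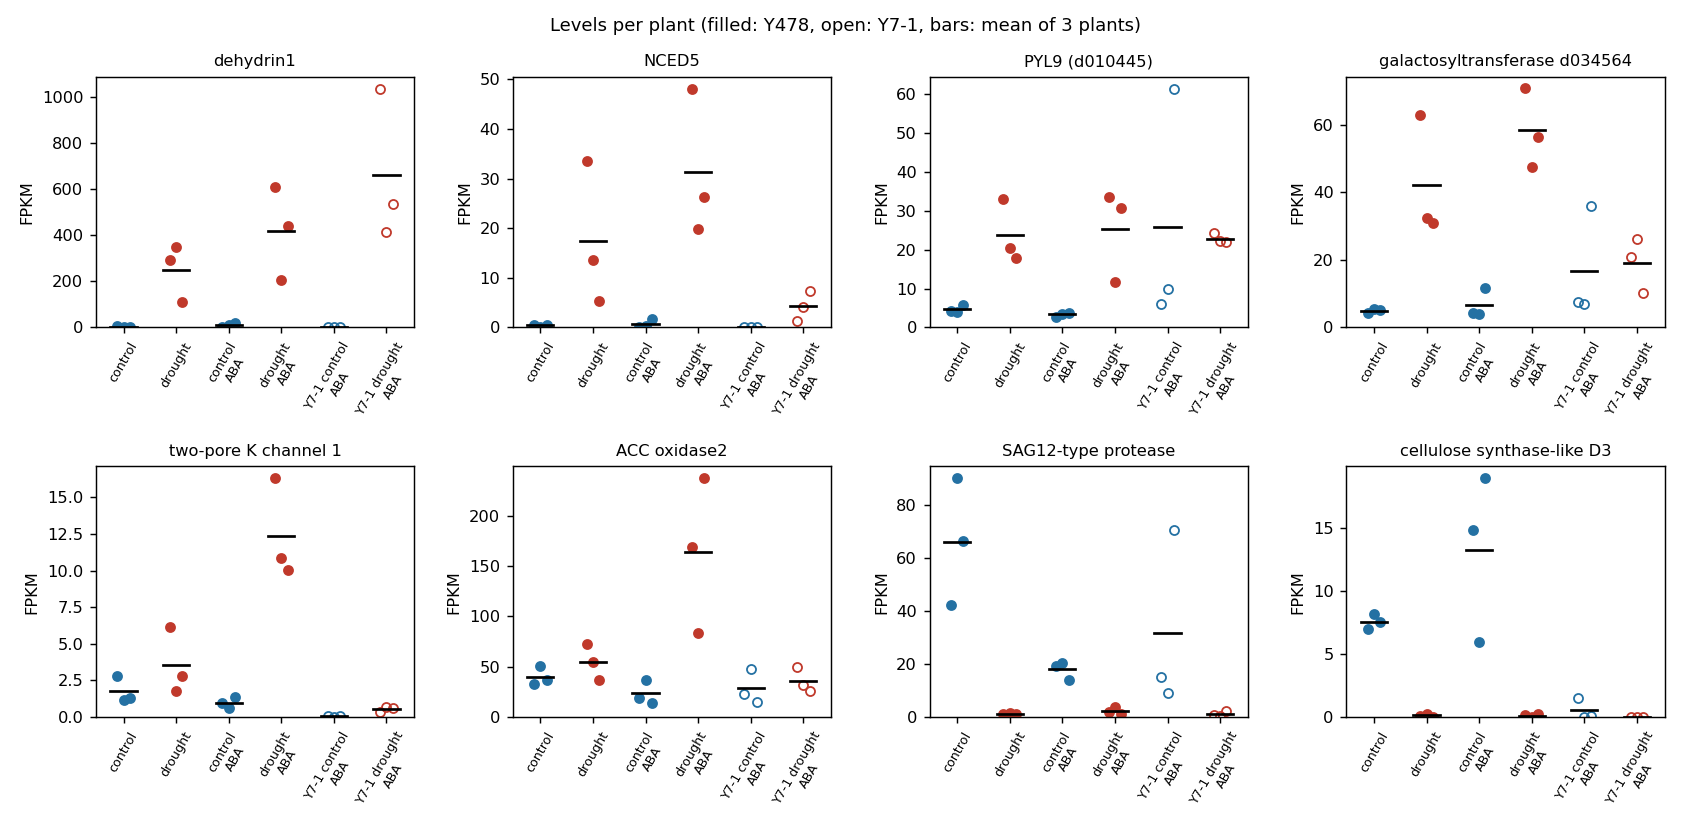
FPKM of 8 genes in each plant of 6 groups, with Y478 as filled and Y7-1 as open points, drought in red, control in blue and bars at the mean of 3 plants. Two-pore potassium channel 1 and ACC oxidase2 are highest in sprayed Y478 drought plants, and the third Y7-1 control plant stands above the other Y7-1 controls for the PYL9, galactosyltransferase and SAG12-type genes.

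Finally, 203 of the 1473 DEGs had neither a name nor a description. The gene with the largest rise of all, Zm00001d031228 on chromosome 1, is among these and had 138, 38.3 and 102 FPKM in drought plants and 0, 0 and 2.66 FPKM in control plants (6.47 ± 0.76, adjusted p 0.000334). Of 23883 neighbouring pairs of tested genes, 125 held a DEG at both positions, of which 83 pairs rose together, 19 fell together and 23 moved in opposite directions. With 6.14% of all tested genes called, 4.43% rising and 1.71% falling, some such pairs arise without any link between neighbours. How many was not worked out, so these counts are not read as clustering. The PP2C 16 pair on chromosome 8 is 1 of those that rose together, and the pair of thaumatin genes on chromosome 1 is 1 of the opposite ones.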

How the data were processed

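The authors extracted RNA from the second fully expanded leaf of 3 individual plants per group, made NEBNext Ultra libraries and sequenced them on an Illumina NovaSeq. HISAT2 2.0.5 is named in the submitters' processing notes. How reads were counted, with or without strand, which annotation release was used and what computed FPKM is not given in the sources used here, and the labels also name a mouse build, retina and a TruSeq kit, which are not those of maize leaves. The authors deposited FPKM values per gene in 1 table of 24 libraries with gene names, positions and lengths. Before testing, multiplying FPKM by gene length gave whole reads within 0.05 for 100% of the values above 0, which gave the depth (17626554 to 18332217 reads) and allowed a voom test. One read in a gene of 1 kilobase was worth 0.0536 to 0.0732 FPKM in the 6 libraries, and intervals and floors from reads cover counting error only.

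Genes that reached 0.5 FPKM in 3 or more of 24 libraries entered a test on log2(FPKM + 0.5) with limma 3.58.1 (R 4.3.3), with 8 group means in 1 fit, a mean-variance trend in the empirical Bayes step and Benjamini-Hochberg adjustment over 23978 genes. The fit had 16 residual degrees of freedom. For a DEG the two-sided adjusted p had to be below 0.05 and the log2 change 1 or more in size. The p-values measure the spread between individual plants grown in 1 experiment. Gene lists were matched by words in the names and descriptions. Named genes are the 15 largest DEGs in each direction with a mean of at least 2 FPKM and no overlap, up to 4 DEGs per list (or the member with the smallest p), the 5 smallest p in each direction, genes differing between the lines and a set of ABA genes. Genes compared with and without the spray were taken from these after their values were seen. Libraries were compared with Python 3.11.15 and pandas 2.3.3. The members, lists and tests were chosen with earlier results of these data known. The alternatives were pseudocounts of 0.1 and 1, no filter or a filter at 1 FPKM, median-of-ratios rescaling, only the compared groups in the fit, array weights, limma-voom on the recovered reads, the replicate number as a block and leaving out single libraries. The test was also run on simulated data, with changes put only into genes well above 0 reads and an equal spread in all plants. That run therefore does not cover changes of genes near 0 or groups with uneven plants. Replicate libraries differed far beyond counting noise (chi-square per degree of freedom 33.2 to 111.7), so none was a copy. The reference table belongs to another build and was not used for positions. No sequence was used here.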

Additional observations from a re-analysis of the deposited data

Results flagged for a closer look

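For 7 genes the drought response with exogenous ABA differed between Y7-1 and Y478 by a limma test of the difference itself (adjusted p under 0.05, log2 changes in Y7-1 minus those in Y478). With 3 plants per group no formal test for single deviating plants was made, but single plants were left out and libraries weighted. Y7-1 control plant 3 had the lowest array weight of the 24 libraries (0.186), and without it 14 genes passed. By limma-voom on the recovered reads 0 genes passed, and no technical or biological cause was tested for any of them.

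Metal tolerance protein 10 (Zm00001d040002) had 79.1, 56.1 and 120.4 FPKM in drought and 25.8, 16.9 and 29.1 FPKM in control plants of Y478. In Y7-1 the values were 21.1, 26.2 and 19.4 FPKM under drought and 37.2, 36.2 and 35.8 FPKM in controls, a difference of the log2 changes of -2.49 ± 0.42 (SE, adjusted p 0.0403). A 3-ketoacyl-CoA synthase gene (Zm00001d037328) was listed at 0 in all Y478 plants of the comparison, so its difference is that of Y7-1 alone and its size depends on the pseudocount. In Y7-1 the values were 2.91, 3.79 and 2.35 FPKM under drought and 0.0523, 0 and 0.0665 FPKM in controls, a difference of the log2 changes of 2.69 ± 0.37 (SE, adjusted p 0.0139). A serine carboxypeptidase-like 19 gene (Zm00001d003530) was at 0 in all drought plants of Y478 and at 0.0505, 0 and 0 FPKM in its control plants, and the size of the difference depends on the pseudocount. In Y7-1 the values were 0, 0 and 0 FPKM under drought and 5.78, 3.03 and 11.8 FPKM in controls, a difference of the log2 changes of -3.65 ± 0.54 (SE, adjusted p 0.0139). The gene of protein DETOXIFICATION 35 (Zm00001d033296) had 1.46, 2.88 and 1.68 FPKM in drought and 4.50, 3.22 and 3.84 FPKM in control plants of Y478. In Y7-1 the values were 2.61, 3.24 and 2.15 FPKM under drought and 0.548, 0.745 and 0.698 FPKM in controls, a difference of the log2 changes of 2.26 ± 0.38 (SE, adjusted p 0.0361). A proteasome subunit alpha gene (Zm00001d043137) had 2.10, 3.10 and 2.45 FPKM in drought and 7.48, 6.79 and 7.33 FPKM in control plants of Y478. In Y7-1 the values were 4.91, 3.61 and 3.89 FPKM under drought and 2.26, 4.14 and 2.45 FPKM in controls, a difference of the log2 changes of 1.81 ± 0.29 (SE, adjusted p 0.0274). Cellulose synthase-like D3 (Zm00001d021732) had 0.111, 0 and 0.197 FPKM in drought and 14.9, 5.98 and 19.0 FPKM in control plants of Y478. In Y7-1 the values were 0, 0 and 0 FPKM under drought and 1.48, 0 and 0.0545 FPKM in controls, a difference of the log2 changes of 3.68 ± 0.57 (SE, adjusted p 0.0231). The last of the 7, Zm00001d013165 (chromosome 5, 5729274 to 5729903), has neither a name nor a description and is given here because it passed, not by the rule for named genes. It was listed at 0 in all Y478 plants of the comparison and in all Y7-1 drought plants, and at 1.01, 1.89 and 2.80 FPKM in Y7-1 controls, a difference of -2.19 (adjusted p 0.0139) that depends on the pseudocount.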

How the results depend on the processing

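The 1473 DEGs (1062 up and 411 down) became 234 (168 and 66) when only the compared groups entered the fit, and 3177 (2137 and 1040) with array weights. Leaving out 1 plant gave 597 to 1612 DEGs, 466 to 1142 up and 131 to 470 down. The 985 DEGs without the spray became 2510 with array weights and 282 to 1286 without 1 plant. The 1695 of Y7-1 became 240 with only the compared groups, 3229 with array weights and 901 to 1987 without 1 plant. The 562 shared DEGs became 50, 1234 and 186 to 696 in the same order. The 0 genes that differed with and without the spray became 1 with no filter, 1 with only the compared groups and 1358 with array weights, and 0 without any 1 plant. The 7 genes that differed between lines became 1 at a pseudocount of 0.1, 15 with no filter, 866 with array weights, 0 by limma-voom, 45 without the library labelled Y7-1 moderate drought 3, and 0 to 40 without 1 plant. Array weights gave control plant 1 a weight of 7.43 and control plant 3 a weight of 0.519, and the cause of the larger counts was not tested. Replicate numbers did not pair the plants, since deviations of same-numbered plants had correlations of -0.0821, 0.0722 and -0.0425. With the replicate number as a block the DEGs were 1451 (1046 up, 405 down). Of 178 named DEGs, 45 stayed with only the compared groups, 155 by limma-voom, 172 with the block and 178 with median-of-ratios rescaling, and in none did the direction turn. Genes under 1 FPKM rest on few reads, and the leaves are mixtures of cell types.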

Other observations

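Some genes were read in only 1 of the lines. Chosen on the 3 treatments other than the sprayed drought, 55 genes were read in Y478 and not in Y7-1, and 74 in Y7-1 and not in Y478. The sprayed drought plants of Y7-1 read 0, 0 and 0 of the 55 and 72, 67 and 67 of the 74.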
